A study of Mus musculus with 8 samples.

Results

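The genes described here encode the semaphorin guidance cues, their plexin and neuropilin receptors, the plexin domain containing proteins Plxdc1 and Plxdc2, and the CRMP phosphoproteins that act below the receptors. They were taken by gene symbol and not by a cutoff on their values, though with earlier results of these data known. All 38 are among the 17631 genes of the authors' deposited table: 20 semaphorins, 9 plexins, 2 neuropilins, 2 plexin domain containing genes and 5 CRMPs. The study sequenced RNA from the apical part of lower first molars of C57BL/6 mice at postnatal day 7.5, in 2 groups of 4 libraries. The mutant group was Gli1-CreERT2;Runx2fl/fl and the control group Runx2fl/fl. Both groups are labelled with the same injection of tamoxifen, given on day 3.5 at 1.5 mg for each 10 g of the pup's weight. CreERT2 is a recombinase that acts after tamoxifen and is here driven from Gli1, a gene active in hedgehog-responsive cells, so recombination is aimed at those cells, while the whole apical tissue was sequenced. The mutant group alone carries the driver, so the driver and the loss of Runx2, without which bone does not form, cannot be told apart.

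Semaphorins are secreted or membrane-bound proteins that steer axons, vessels and migrating cells. Class 3 semaphorins are secreted and mostly bind a neuropilin, which pairs with a plexin that carries the signal inward. Classes 4 to 6 are transmembrane proteins that bind plexins directly, and class 7 is anchored to the membrane by a lipid. In mouse, Sema3a made by the mesenchyme of the tooth germ keeps nerve fibres out until the tooth is ready for them and also protects bone, while Sema4d made by osteoclasts restrains osteoblasts through Plxnb1.

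The values are the authors' means per group of normalised expression on a linear scale. Unless another source is named, means, folds, p-values and adjusted p-values below are those of the authors' deposited table, and log2 ratios (mutant over control) and medians were computed from it. Values per library are not in the table used here, so no spread, standard error or library count can stand beside a mean, and the depth of the libraries is unknown. The labels do not say whether each library came from 1 animal, so the p-values measure the spread between libraries, which may be technical. Whether the values are per transcript length is not given either, and levels are therefore compared between groups. Sums over a list, and the share of a gene in a sum, may weight genes by transcript length. Runx2 itself had means of 65.1 in mutant and 105.5 in control molars (the authors' p = 0.000772, adjusted p = 0.0646), and Gli1 had 19.9 in mutant and 38.8 in control molars (adjusted p = 0.0228).

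Of the 38 genes, Sema3c alone passed an adjusted p of 0.05, and it was higher in the mutant. Among all genes tested, 0.788% of genes passed in either direction and 0.471% passed as higher. Of the secreted class 3 semaphorins 6 of 7 had higher means in the mutant, of the class 4 semaphorins 2 of 6, and both neuropilins had log2 ratios of 0.10 or less. Dividing each mean by its group total adds 0.14 to every log2 ratio, so directions of ratios between -0.14 and 0 depend on the scaling. Much of the difference between the group totals lies in the enamel genes Amelx and Ambn, neither of which passed. At an unadjusted p under 0.05, a looser rule that carries no correction for the number of genes, 7 of the 38 were higher and 3 lower. These are 18.4% and 7.89% of the 38, beside 9.89% and 9.4% of all genes. Among genes that reach a mean of 1 in either group, as 36 of the 38 do, the shares were 11.4% and 10.8%. The 7 were Sema3c, Sema3a, Dpysl3, Plxdc2, Dpysl2, Plxna3 and Sema6a, and the 3 were Sema4d, Crmp1 and Sema4b. The median log2 ratio was 0.11 over the 38 genes and 0.00 over all genes, and 23 of the 38 (60.5%) had the higher mean in the mutant, as had 50.6% of all genes.

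**Figure D1:**
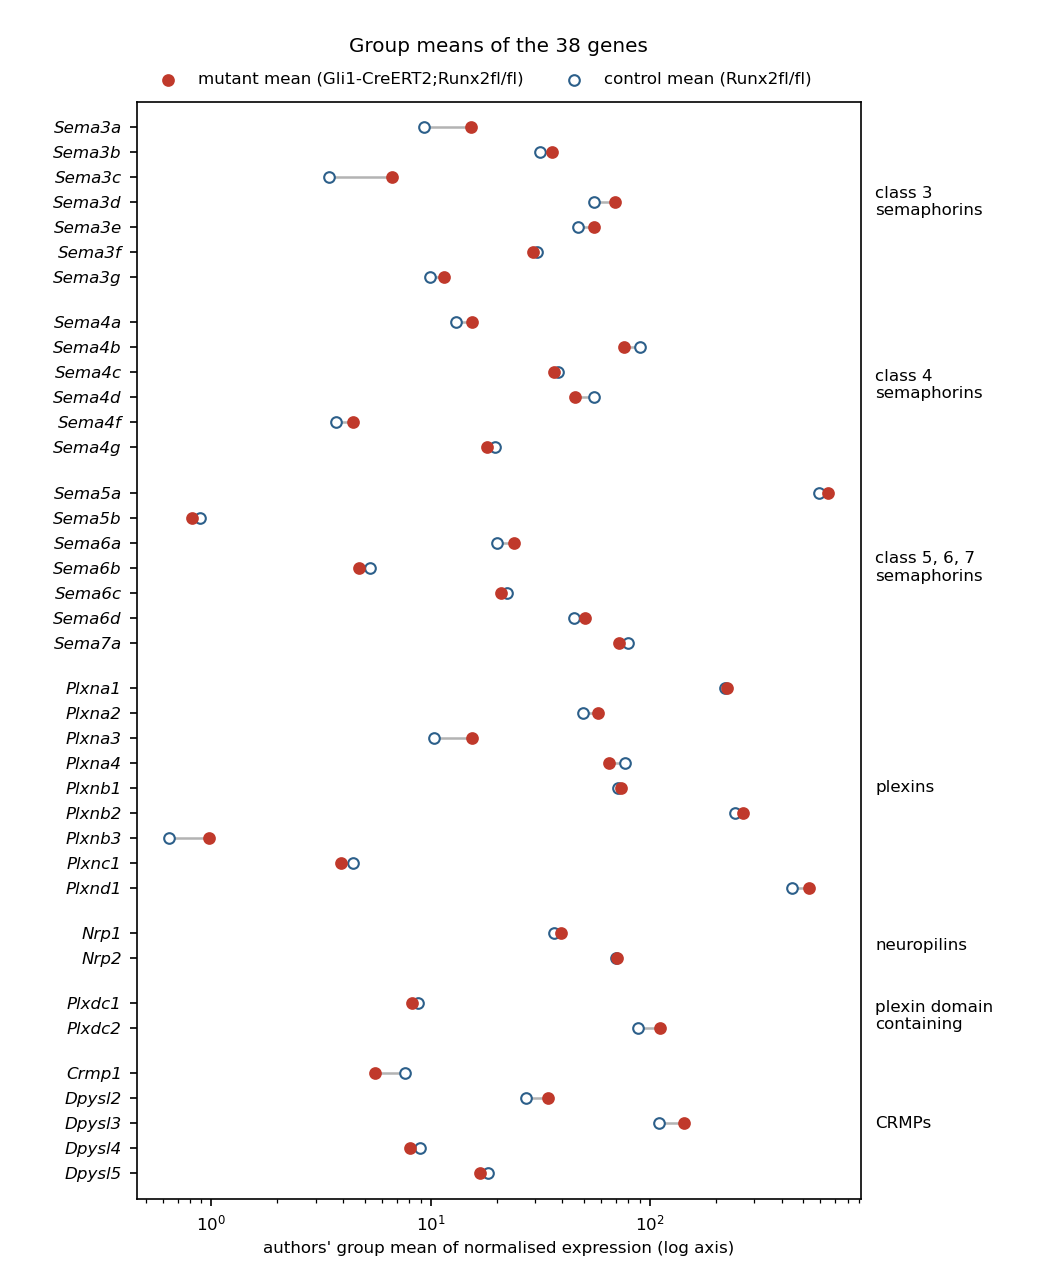
Authors' group means of normalised expression for the 38 genes on a log axis, filled red for the mutant and open blue for the control, grouped by class. Sema3c (6.67 in the mutant, 3.45 in the control) and Sema3a (15.4 in the mutant, 9.34 in the control) show wide gaps, as do Plxna3 and Plxnb3, and most other pairs lie close together.

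Sema3c and Sema3a, the class 3 ligands with the lowest p-values, both lie on mouse chromosome 5. Their promoter windows from RefSeq (GRCm38.p6, 250 bases before to 50 after the start, both on the plus strand) are printed because these genes lead the comparison and the study deletes a RUNX factor. Capitals mark a match to the RUNX core motif, searched as TGTGGT and TGCGGT on both strands, which do not overlap each other here.
Sema3c, chr5:17574566-17574865: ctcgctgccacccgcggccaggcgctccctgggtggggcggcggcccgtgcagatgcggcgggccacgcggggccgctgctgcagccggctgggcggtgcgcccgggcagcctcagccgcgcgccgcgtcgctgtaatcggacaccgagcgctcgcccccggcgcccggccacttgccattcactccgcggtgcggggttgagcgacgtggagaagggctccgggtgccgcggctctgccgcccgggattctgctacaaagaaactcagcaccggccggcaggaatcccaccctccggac
Sema3a, chr5:13396534-13396833: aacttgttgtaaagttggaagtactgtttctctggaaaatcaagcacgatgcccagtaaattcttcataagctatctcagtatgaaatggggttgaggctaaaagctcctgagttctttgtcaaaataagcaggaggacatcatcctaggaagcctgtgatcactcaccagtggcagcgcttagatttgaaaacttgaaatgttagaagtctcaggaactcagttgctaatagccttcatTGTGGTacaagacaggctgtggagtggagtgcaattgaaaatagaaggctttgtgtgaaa
The Sema3c window held no match and the Sema3a window held 1, a TGTGGT shortly before the RefSeq start of that window. The Sema3a window lies inside the gene, far past its annotated start at 13125414. The Sema3c window also lies inside its gene, past the annotated start at 17574281. No window at either annotated start was searched. Of all 32851 such windows 22.4% held a match to either form, and of the 40 windows of the 28 members that the promoter table holds 10 did (25%). Letters in a window are a description and not evidence of binding.

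Sema3c (ENSMUSG00000028780, chromosome 5, 17574281 to 17730268, GRCm38), a secreted cue for neural crest cells in the developing heart, had a mean of 6.67 in mutant and 3.45 in control molars. It rose 1.94-fold (log2 ratio 0.95, p = 0.000212, adjusted p = 0.0462 in the authors' deposited table), and its p-value ranked 78 among all genes. That call ended when a trend on GC content and length was subtracted from the authors' values (log2 ratio 0.77, recomputed adjusted p = 0.253). Sema3a (chromosome 5, 13125414 to 13602565), the cue that times nerve entry into the tooth, had means of 15.4 in mutant and 9.34 in control molars. Its ratio was 1.64 (the authors' p = 0.000671) with an adjusted p of 0.0639, outside the threshold. It would pass a threshold of 0.10, as did 3.64% of all genes, and of the 38 genes only Sema3c and Sema3a did so.

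The other class 3 ligands had smaller ratios, none of them past an unadjusted p of 0.05. Sema3d had means of 69.8 in mutant and 55.6 in control molars (log2 ratio 0.33, the authors' p = 0.0927). Sema3e, which binds Plxnd1 without a neuropilin, had 55.8 in mutant and 47.2 in control molars (log2 ratio 0.24, the authors' p = 0.243). Sema3g, known from vessel endothelium, had 11.6 in mutant and 9.94 in control molars (log2 ratio 0.22, the authors' p = 0.350). Sema3b had a log2 ratio of 0.17, and Sema3f, which acts through Nrp2, was the 1 class 3 gene with the lower mean in the mutant (29.3 in mutant and 30.7 in control molars, log2 ratio -0.07). The median of the class was 0.24, and the sum of its 7 means was 224.1 in mutant and 188.0 in control molars.

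**Figure D2:**
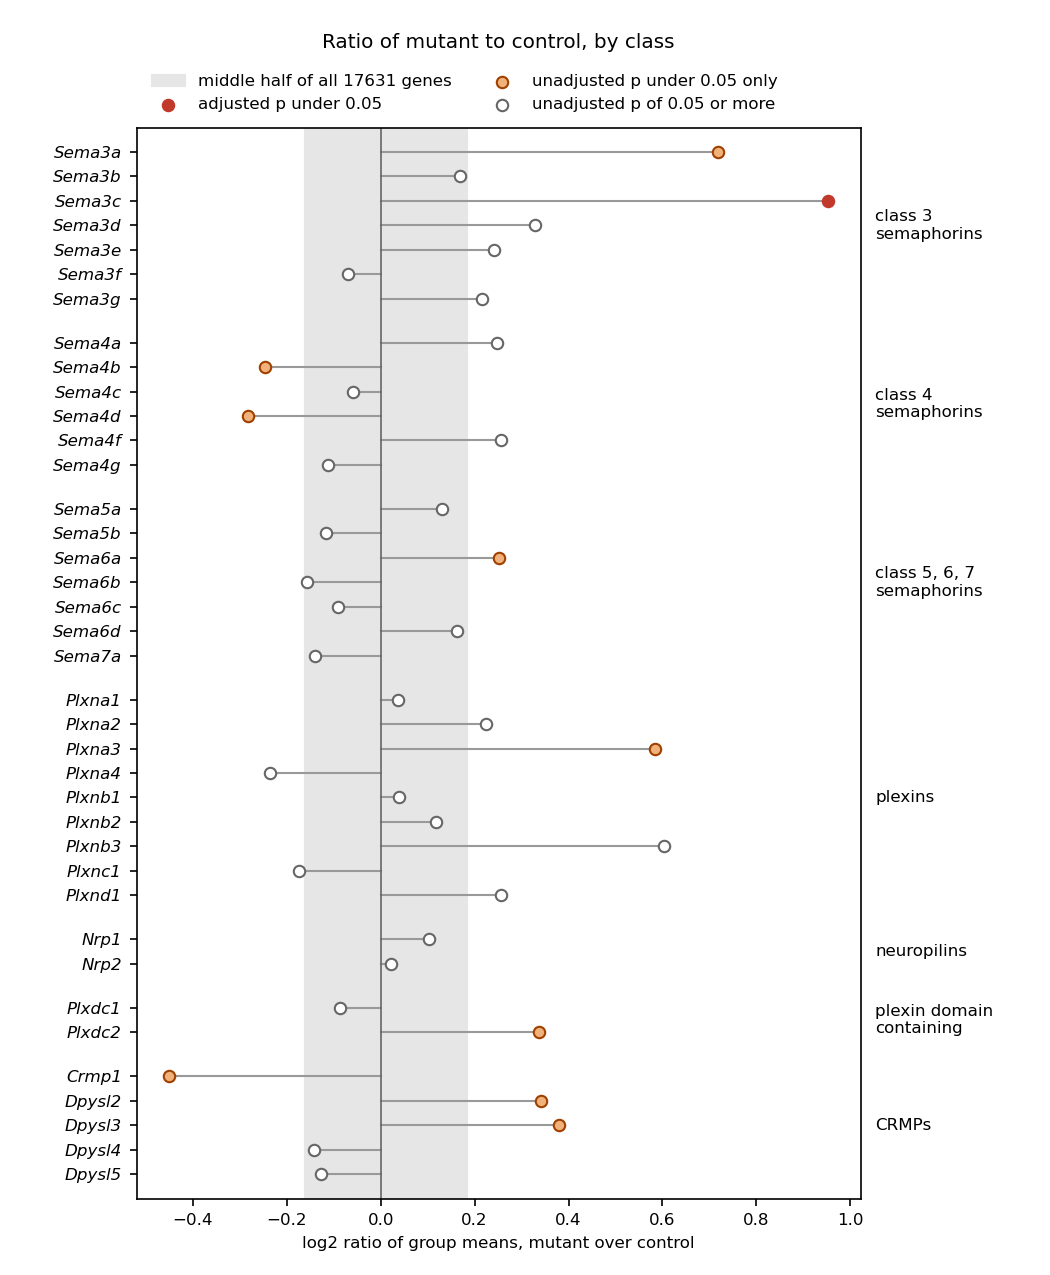
Log2 ratio of mutant to control means for each of the 38 genes by class, with filled red for an adjusted p under 0.05, orange for an unadjusted p under 0.05 only and white for the rest. The grey band spans the lower to the upper quartile of all genes (-0.16 to 0.18), and Sema3c at 0.95 and Sema3a at 0.72 lie farthest to the right of it.

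The 4 class 3 genes on chromosome 5 lie in the order Sema3d, Sema3a, Sema3e and Sema3c within 5.35 Mb, and all had higher means in the mutant (median log2 ratio 0.52). Their transcripts are poor in GC, at 40.1% to 42.5%, whereas Sema3b, Sema3f and Sema3g hold 56.2% to 58.5% and had a median of 0.17. Ratios followed GC content across the whole table: the median log2 ratio was 0.18 in the lowest eighth of protein-coding genes by GC and -0.12 in the highest. When a trend on GC content and exonic length was subtracted, and p-values were recomputed from those of the authors, Sema3c stood at 0.77 (recomputed p = 0.0136, adjusted p = 0.253) and lost its call, and Sema3a at 0.48 (recomputed p = 0.0753). Sema3d then stood at 0.03 and Sema3e at -0.02, while Sema3b stood at 0.27, with a recomputed p of 0.0442, and Sema3g at 0.28. With that subtraction none of the 36 genes that could be fitted passed an adjusted p of 0.05, where 0.206% of all 13128 fitted genes did. Of the 36, 8 (22.2%) had an unadjusted p under 0.05, beside 14% of the fitted genes. The subtraction treats the whole trend as unwanted, and its part in these ratios was not tested further.

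**Figure D3:**
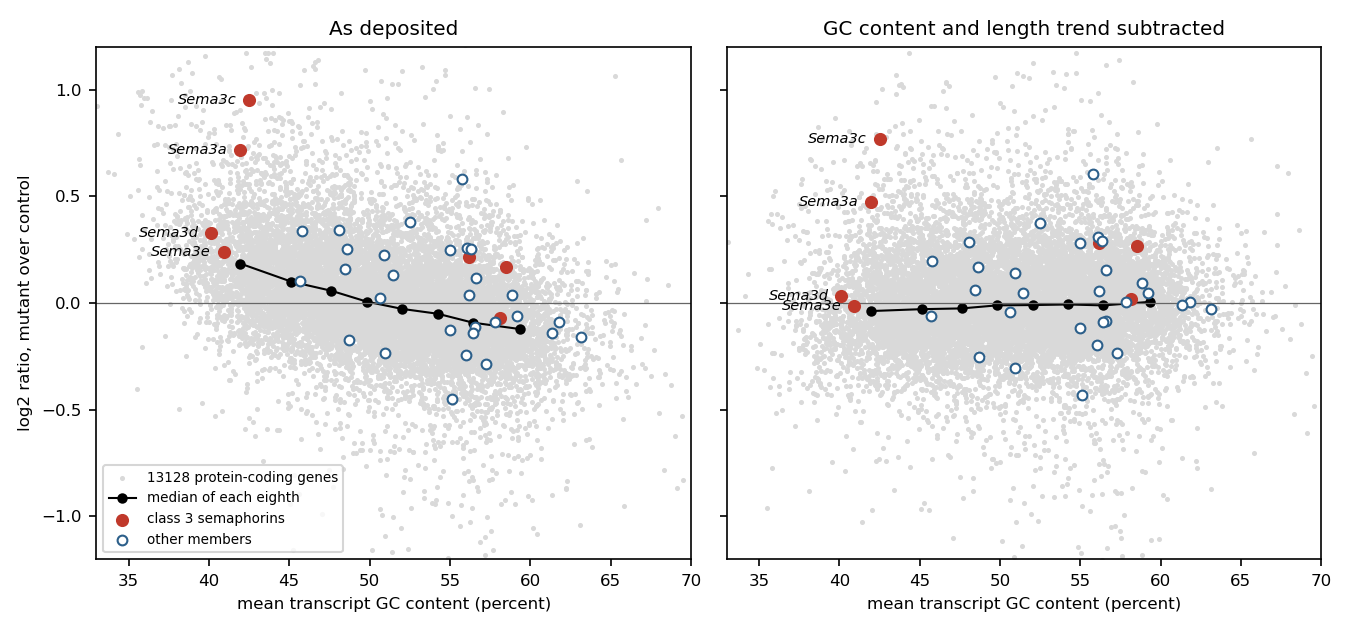
Log2 ratio of mutant to control against mean transcript GC content (percent) for protein-coding genes that reach a mean of 1 in either group, as deposited and after the trend was subtracted, with class 3 semaphorins in red, other members in open blue and the medians of the GC eighths in black; genes beyond the axes are not drawn. Sema3c (0.95, then 0.77) and Sema3a (0.72, then 0.48) stay above the medians, and Sema3d and Sema3e move to 0.03 and -0.02.

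Among the transmembrane class 4 semaphorins 4 of 6 had lower means in the mutant (median log2 ratio -0.09, or 0.05 with means divided by group totals), and none passed the adjusted threshold. Sema4d, the osteoclast cue that restrains osteoblasts, had means of 45.8 in mutant and 55.7 in control molars (log2 ratio -0.28, the authors' p = 0.00391, adjusted p = 0.103). Its receptor gene Plxnb1 had 73.8 in mutant and 71.8 in control molars (the authors' p = 0.669). Sema4b had 76.6 in mutant and 90.8 in control molars (log2 ratio -0.25, the authors' p = 0.0348, adjusted p = 0.224). Both ratios kept their sign with the trend subtracted from the authors' values, Sema4d at -0.23 (recomputed p = 0.0118) and Sema4b at -0.20 (recomputed p = 0.0893). Sema4c and Sema4g, ligands of Plxnb2, stood at -0.06 and -0.11 as deposited, and at 0.05 and -0.08 with the trend subtracted. Sema4a and Sema4f then stood at 0.28 and 0.31, larger in size than Sema4d and Sema4b. After the subtraction 3 of the 6 ratios were above 0, with a class median of -0.02. The lean to lower values in this class therefore depended on the trend. Sema4f, like Sema4d, then fell under the unadjusted threshold of 0.05. Sema4a (15.5 in mutant and 13.02 in control molars, the authors' p = 0.120) and Sema4f (4.41 in mutant and 3.69 in control molars, p = 0.129) were the 2 with higher means.

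Classes 5 to 7 held 3 genes with higher and 4 with lower means in the mutant (median log2 ratio -0.09, or 0.05 with means divided by group totals). With the trend subtracted the median was 0.03 over 6 genes. Sema5b could not be fitted, so this median and the -0.09 do not cover the same genes. Sema6a, which signals to Plxna2 and Plxna4, had means of 23.97 in mutant and 20.1 in control molars (log2 ratio 0.25, the authors' p = 0.0372, adjusted p = 0.230), and a log2 ratio of 0.17 (recomputed p = 0.124) with the trend subtracted. Sema6d, a ligand of Plxna1, had 50.7 in mutant and 45.3 in control molars (the authors' p = 0.135). Sema5a, which carries thrombospondin repeats, had 652.1 in mutant and 595.9 in control molars (log2 ratio 0.13, the authors' p = 0.266), and its relative Sema5b had means under 1 in both groups (0.815 in the mutant, 0.884 in the control). Sema7a, the lipid-anchored member, which binds integrins as well as Plxnc1, had 72.2 in mutant and 79.6 in control molars (the authors' p = 0.277). Sema6b and Sema6c stood at log2 ratios of -0.16 and -0.09.

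Of the 9 plexins 7 had higher means in the mutant, but none passed the adjusted threshold, and 1 had an unadjusted p under 0.05. That gene was Plxna3, which partners neuropilins in class 3 signalling, with means of 15.5 in mutant and 10.4 in control molars (log2 ratio 0.58, the authors' p = 0.0163, adjusted p = 0.168). With the trend subtracted from the authors' values it stood at 0.60 (recomputed p = 0.00840). Plxnb3 had a ratio of similar size (log2 ratio 0.60, the authors' p = 0.0617) between means of 0.976 in mutant and 0.643 in control molars, a range in which a fold is poorly defined. The remaining class A plexins stood at 0.22 for Plxna2, 0.04 for Plxna1 and -0.24 for Plxna4. Plxnd1, the endothelial plexin that receives Sema3e, had 534.7 in mutant and 448.0 in control molars (log2 ratio 0.26, the authors' p = 0.231). Plxnb2 had 266.8 in mutant and 246.0 in control molars (the authors' p = 0.174), and Plxnc1 had 3.92 in mutant and 4.42 in control molars (p = 0.337).

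The neuropilins, which bind class 3 semaphorins and also vascular endothelial growth factors, had close means in the 2 groups. Nrp1, the main receptor for Sema3a, had 39.5 in mutant and 36.8 in control molars (log2 ratio 0.10, the authors' p = 0.381), and Nrp2 had 70.9 in mutant and 69.9 in control molars (log2 ratio 0.02, p = 0.798). With the trend subtracted both lay just under 0, at -0.06 and -0.04. The p-values do not show that the levels are equal, and no interval can be given without values per library. Plxdc2, a receptor for pigment epithelium-derived factor, had 111.7 in mutant and 88.4 in control molars (log2 ratio 0.34, the authors' p = 0.00664, adjusted p = 0.121). Its relative Plxdc1 had 8.22 in mutant and 8.73 in control molars (the authors' p = 0.542). The Plxdc2 ratio was 0.20 (recomputed p = 0.0589) with the trend subtracted from the authors' values.

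The CRMPs, which carry the semaphorin signal to microtubules, split by gene (median log2 ratio -0.13, or 0.01 with means divided by group totals), and none passed the adjusted threshold. Dpysl3 (CRMP4) had means of 144.2 in mutant and 110.8 in control molars (log2 ratio 0.38, the authors' p = 0.00377, adjusted p = 0.102). Dpysl2 (CRMP2), which binds tubulin and is needed for the growth cone response to Sema3a, had 34.4 in mutant and 27.1 in control molars (log2 ratio 0.34, the authors' p = 0.0123, adjusted p = 0.152). Crmp1 lay on the other side, with 5.57 in mutant and 7.61 in control molars (log2 ratio -0.45, the authors' p = 0.0223, adjusted p = 0.189). These 3 kept their signs with the trend subtracted from the authors' values, at 0.37 (recomputed p = 0.00339) for Dpysl3, 0.28 (recomputed p = 0.0280) for Dpysl2 and -0.43 (recomputed p = 0.0398) for Crmp1. Dpysl4 and Dpysl5 had lower means in the mutant by log2 ratios of -0.14 and -0.13, with p-values of 0.386 and 0.420.

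**Figure D4:**
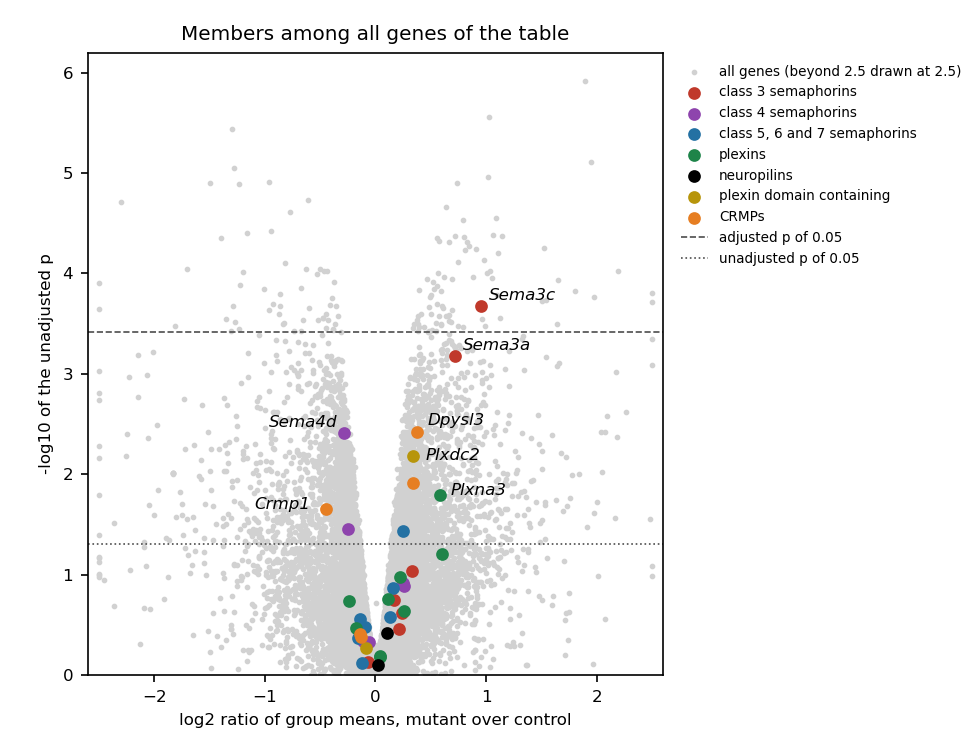
Log2 ratio of mutant to control against -log10 of the unadjusted p for all genes (grey) and the 38 genes by class (coloured), with the adjusted and unadjusted thresholds of 0.05 as dashed and dotted lines. Sema3c is the 1 coloured point above the dashed line, and Sema3a lies just under it.

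Of 59 partner genes in 4 lists, none passed the adjusted threshold in either direction in the authors' deposited table, 7 (11.9%) had an unadjusted p under 0.05 as higher and 3 (5.08%) as lower, beside the 9.89% and 9.4% of all genes given above. Among genes that reach a mean of 1 in either group those shares were 11.4% and 10.8%. Of 5 other neuropilin ligands 3 had higher means, and Pgf, placental growth factor, had 6.05 in mutant and 2.62 in control molars (log2 ratio 1.21, the authors' p = 0.00133, adjusted p = 0.0762). Pgf passed with the trend subtracted from the authors' values (1.30, recomputed adjusted p = 0.0431). Vegfa, the main vessel growth factor, stood at -0.06. Of 15 co-receptors and other receptors 11 had higher means (median log2 ratio 0.21), among them Itga1 (0.58, the authors' p = 0.00813), the VEGF receptors Flt1 (0.43, p = 0.0174) and Kdr (0.34, p = 0.0315), and Met (0.65, p = 0.0485), which partners class B plexins. Of 33 cytoplasmic effectors 20 had lower means (median -0.04), and the 3 with an unadjusted p under 0.05 were the GTPase genes Rras2 (18.7 in mutant and 29.0 in control molars, the authors' p = 0.00891) and Rhod (18.1 in mutant and 21.7 in control molars, p = 0.0133) and the actin regulator Cyfip2 (-0.26, p = 0.0248). Among 6 processing proteases, Adam17 and Adam10, which shed membrane proteins, stood at 0.31 (the authors' p = 0.00856) and 0.23 (p = 0.0179), and Furin, which cleaves class 3 semaphorins, at -0.19 (p = 0.0993). With the trend subtracted from the authors' values, 1 of the 15 co-receptors and other receptors, against 4 before, and 0 of the 6 proteases, against 2 before, had an unadjusted p under 0.05. Itga1 then stood at 0.34, Adam17 at 0.18 and Adam10 at 0.12.

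Marker genes of cells that could hold these transcripts moved in the same comparison, and their part in the ratios above was not tested. In whole tissue, fewer cells of a type and less RNA per cell cannot be told apart. Of 8 dental follicle and ligament markers 4 had higher and 4 lower means (median log2 ratio 0.28, or -0.02 with the trend subtracted). Ogn passed as higher (214.3 in mutant and 119.0 in control molars, the authors' adjusted p = 0.0330), while Spon1 had 48.0 in mutant and 82.3 in control molars (log2 ratio -0.78, the authors' adjusted p = 0.0608). The sum of the list, most of it from Postn and Ogn, was 649.6 in mutant and 451.3 in control molars. All 8 markers of dividing cells had higher means (sum 229.7 in mutant and 167.7 in control molars), with Cenpf and Mki67 past the threshold. All 10 osteoblast markers had lower means (median log2 ratio -0.41), with Sp7 and Bglap past it. None of 10 endothelial markers passed (median 0.07, sum 420.4 in mutant and 395.5 in control molars), nor, with the authors' adjusted p, any of 12 Schwann cell and nerve markers (sum 140.9 in mutant and 150.8 in control molars), where Ngfr and Gap43 stood at 0.68 and 0.58 and the myelin gene Mbp at -0.63. The neuronal genes Nefl, Nefm and Prph had means under 1 in both groups, and no listed marker had a mean of 0. None of 11 macrophage and osteoclast markers passed either (sum 367.1 in mutant and 374.8 in control molars), and 4 had higher and 7 lower means. The macrophage genes Aif1 and Adgre1 stood at 0.49 (the authors' p = 0.0445) and 0.46 (p = 0.0466). The osteoclast genes Mmp9, Acp5, Ctsk, Oscar, Dcstamp and Ocstamp all had lower means, with Oscar at -0.93 (the authors' p = 0.0327) between means under 1. All 7 erythroid markers had lower means, with Hba-a1 past the threshold (sum 425.8 in mutant and 946.5 in control molars). Of 10 pericyte and smooth muscle markers 7 had higher and 3 lower means (median log2 ratio 0.12, sum 698.3 in mutant and 649.7 in control molars). Acta2 and Tagln passed as lower, while Cspg4 stood at 0.32 (the authors' p = 0.00285, adjusted p = 0.0914). At an unadjusted p under 0.05, 3 of the 10 were higher and 3 lower. Of 6 odontoblast markers 5 had lower means and none passed (median log2 ratio -0.04). Col1a1, which with Dmp1 and Phex is also in the osteoblast list, made up most of their sum, and Dspp, a defining odontoblast gene, had 7360.0 in mutant and 7714.3 in control molars. None of 12 dental epithelium and ameloblast markers passed (sum 180567.7 in mutant and 265081.5 in control molars, most of it from Amelx and Ambn). Of these 12, 4 had higher and 8 lower means, with Klk4 at -0.67 (the authors' p = 0.000909) and Trp63 at 0.25 (p = 0.0182). Krt14 and Krt5 stood at -0.08 and 0.04. Nor did any of 7 skeletal muscle markers pass (sum 4.46 in mutant and 6.90 in control molars). With the GC and length trend subtracted from the authors' values, all 8 marker calls named here ended (recomputed adjusted p from 0.0569 for Acta2 to 0.314 for Bglap), each with its sign kept. Among the markers that could be fitted, 2 others were then called, Ngfr as higher (log2 ratio 0.80) and Spon1 as lower (log2 ratio -0.88), each with a recomputed adjusted p of 0.0366.

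**Figure D5:**
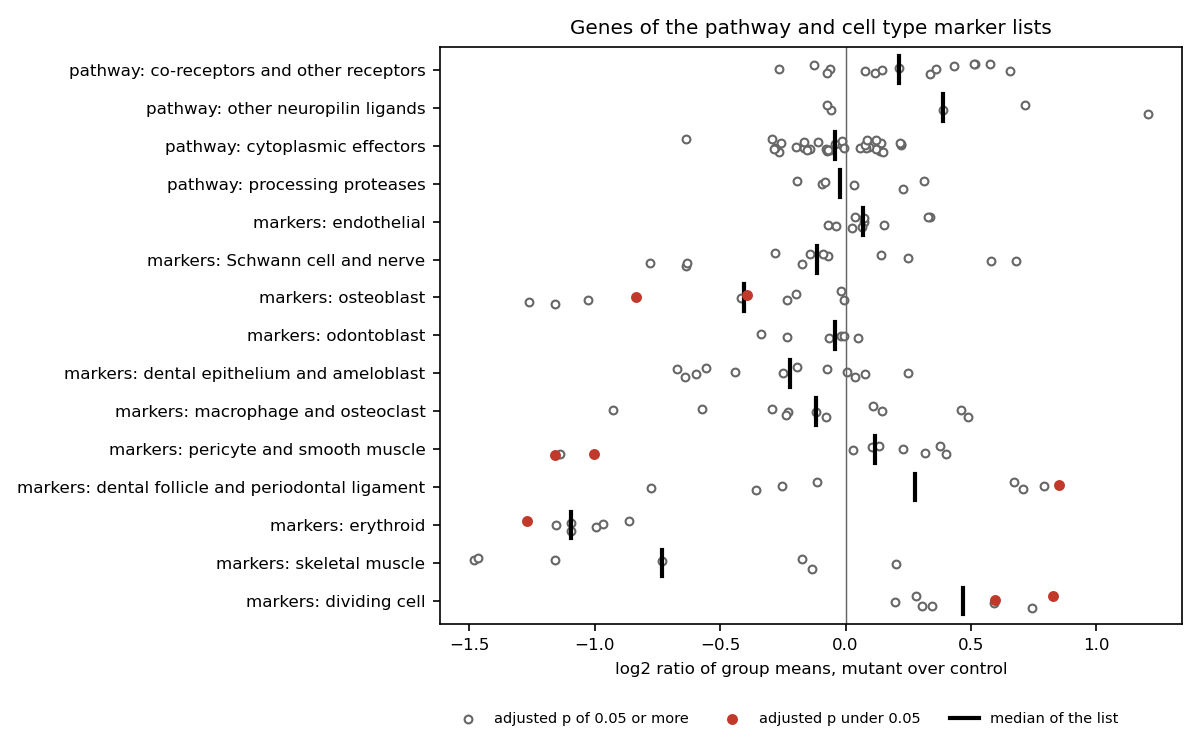
Log2 ratio of mutant to control for each gene of the 4 partner gene lists and 11 cell type marker lists, red where the adjusted p was under 0.05, with the median of each list as a black bar. None of the 59 partner genes is red, Pgf lies farthest to the right at 1.21, and the osteoblast and erythroid markers lie left of 0.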

How the data were processed

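RNA-seq of mouse molars was compared between 4 mutant and 4 control libraries, read as 2 x 50 nt, per the labels. The submitters' processing notes name STAR 2.6.1d, Partek and mm10; how reads were counted and normalised, and which model gave the p-values, is not given in the sources used here. The authors' table, per the file headers, holds group means (normalised signal, linear), their ratio, a signed fold score that restates it, a p-value and a step-up adjusted p-value. The deposited total per gene is 4 times the sum of both means, so no read counts were used, and the planned fits on libraries could not be made. Their adjusted p matched a Benjamini-Hochberg correction over all 17631 genes (relative tolerance 1e-06).

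Calls take the authors' adjusted p under 0.05. Gene symbols matched GENCODE M21 (GRCm38) for 99.6% of genes, which gave coordinates, exonic length and mean transcript GC. The trend was fitted to the signed z of the authors' p, and to the log2 ratio, with smooth terms (mgcv 1.9.3, R 4.3.3) over 13128 protein-coding genes that reach a mean of 1 in either group. It took 25% of the variance of z and was tested on simulated data with a planted trend. The genes, the gene lists and the trend were chosen with earlier results of these data known, and all 38 genes are named. Partner and marker genes named are those past the threshold or among the 3 lowest p-values of a list. Met, Vegfa, Nefl, Nefm, Prph, Dspp, Col1a1, Phex, Amelx, Ambn, Krt5, Krt14, Mmp9, Acp5, Ctsk, Dcstamp and Ocstamp were added after their values were seen.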

Additional observations from a re-analysis of the deposited data

How the results depend on the processing

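The call of Sema3c as higher held when the authors' p-values were adjusted over genes that reach a mean of 1 in either group (adjusted p = 0.0381), while the authors' p-values adjusted over genes that reach the median (11.8) left Sema3c out and called Sema3a (adjusted p = 0.0488), so the count stayed at 1 but the gene differed. The trend subtraction left 0 of the 38 genes called and a threshold of 0.10 called 2, both higher. Among the partner genes, each of these 2 settings called 1 gene, Pgf. No member was called as lower under any setting run. Dividing each mean by its group total (955256 in mutant and 1050684 in control molars) adds 0.14 to every log2 ratio. It moves the medians to 0.25 for all members, 0.38 for class 3, 0.05 for class 4, 0.05 for classes 5 to 7, 0.25 for plexins, 0.26 for the plexin domain containing genes, 0.20 for neuropilins and 0.01 for CRMPs, and gives 7 uncalled members with small ratios the other sign. Relative to that shift of all genes their order is as before. Amelx had means of 112173.6 in mutant and 174945.7 in control molars, and Ambn had 53601.4 in mutant and 72751.6 in control molars. Much of the difference between the totals lies in these enamel genes, neither of which was called. The trend subtraction moved the median of the neuropilins to -0.05, and also gave 7 uncalled members the other sign. For classes 5 to 7 the median was then 0.03, but without Sema5b, which could not be fitted. It therefore does not cover the same genes as the deposited median. Centring on the median and a pseudocount of 1 moved no class median by over 0.1. These scalings keep the authors' p-values as they are, so they can change a direction but not a call.

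No paired analysis was possible because the table holds group means and no values per library, although both groups carry replicate numbers 2 to 5. Leaving out libraries in turn and the count fits were not run for the same reason. The depth of each library is unknown, and means near or under 1, as for Plxnb3 and Sema5b, give poorly defined folds.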

Other observations

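The stretch of chromosome 5 from the start of Sema3d to the end of Sema3c holds 3 other protein-coding genes of the authors' deposited table, picked here after the values were seen, and each had a higher mean in the mutant without passing the adjusted threshold. Hgf, the ligand of the plexin partner Met, had 5.97 in mutant and 4.31 in control molars (log2 ratio 0.47, the authors' p = 0.0212, adjusted p = 0.185). Cacna2d1, a calcium channel subunit gene, had 25.1 in mutant and 19.4 in control molars (log2 ratio 0.38, the authors' p = 0.0107, adjusted p = 0.144), and Pclo, a presynaptic scaffold gene, had 10.9 in mutant and 8.99 in control molars (log2 ratio 0.27, p = 0.250). Their transcripts hold 41.2%, 41.8% and 46.4% GC, and with the GC and length trend subtracted the 3 genes had a median log2 ratio of 0.13.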
